A study of Mus musculus with 11 samples.

Results

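The centromere-side ends of 15 mouse autosomes were examined as a set of regions. An end was taken as the deposited bins that finish within 5 Mb of the first deposited bin of the chromosome, and autosomes 1, 6, 8 and 14 were left out. The ends held 1485 of the 52958 deposited bins. Each end had 97 to 100 bins of about 50 kb, and the first bins started between bases 3000001 and 3100001 of their chromosomes (mm10). The rest of the same autosomes had 34732 bins, and their telomere-side ends, taken as the last 5 Mb, had 1482.

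The bins came from low-coverage whole-genome sequencing of bulk mouse embryonic stem cells (mESC), which was done to look for gains and losses of chromosomes after loss of the TET enzymes. Ctrl cells carry a Cre/ERT2 transgene under the ubiquitin C promoter and the Rosa26-LSL-H2b-Egfp reporter. Tet iTKO cells carry these alleles and floxed Tet1, Tet2 and Tet3. Each genotype gave 1 library before treatment, 1 acute library (tamoxifen at 1 µM for 2.5 days, then 4 days of culture) and 3 long-term libraries of monoclonal populations kept for 30 days. The 11th library came from long-term Dnmt TKO cells, a constitutive knockout of Dnmt1, Dnmt3a and Dnmt3b without the inducible alleles. Per the study's methods these cells come from earlier work, so the knockout and the cell line cannot be told apart. Cultures were kept in 2i medium over fibroblast feeders, and cells were sorted as live CD326+ Thy1.2- cells, with GFP as a further gate for Ctrl and Tet iTKO cells.

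Mouse autosomes are acrocentric, so the assembled sequence of each starts close to the centromere. The centromere itself is built from minor satellite, and the heterochromatin beside it from tandem copies of major satellite, which is densely methylated at CpG sites in most cells. DNMT enzymes place this methylation and TET enzymes oxidise it. Satellite arrays are almost absent from the assembly, and the sequence next to them is rich in repeats, duplicated genes and clusters of receptor genes.

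Some sequences show what limits the reading of these ends. The first bin of chromosome 9 (chr9:3000001-3050117, plus strand, GRCm38) is major satellite-like, since 72.1% of it repeats itself at the length of the major satellite unit, and it holds only predicted genes such as Gm10717 and Gm11168. A pair of consecutive repeat units from this bin, chr9:3027538-3027771 and chr9:3027772-3028005, is shown because reads from such units cannot be placed at 1 site. The units are 97.9% identical, and capitals in the second mark the 5 bases at which it differs from the first.
Unit A: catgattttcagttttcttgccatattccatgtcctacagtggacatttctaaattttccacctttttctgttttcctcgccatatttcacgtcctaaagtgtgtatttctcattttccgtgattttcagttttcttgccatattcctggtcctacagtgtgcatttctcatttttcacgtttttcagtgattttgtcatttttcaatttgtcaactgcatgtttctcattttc
Unit B: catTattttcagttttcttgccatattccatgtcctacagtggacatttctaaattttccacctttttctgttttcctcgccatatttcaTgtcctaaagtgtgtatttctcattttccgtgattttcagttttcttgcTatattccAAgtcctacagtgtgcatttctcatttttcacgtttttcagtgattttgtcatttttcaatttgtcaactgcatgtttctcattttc
The other stretch lies just upstream of Pira2, a paired immunoglobulin-like receptor gene of chromosome 7 to which the results return. The 100 bases before its annotated start (chr7:3845052-3845151, minus strand, GRCm38) occur without any change at chr7:3739890-3739989, near the gene Gm15922. No capitals are used because no base differs.
Pira2 upstream: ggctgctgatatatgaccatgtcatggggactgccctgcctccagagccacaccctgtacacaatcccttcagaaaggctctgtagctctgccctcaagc

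Depth is given below as relative depth, the depth of a bin over the median autosomal bin depth of its library, so that 1 stands for a typical autosomal bin. The libraries held 555 to 812 megabases of mapped sequence, with a median autosomal depth of 0.215 to 0.315. A median bin held 215 to 315 reads if reads are taken as 50 bases. Long-term libraries of one group differed by an SD of 0.092 on the log2 scale in a typical bin of the ends, where counting alone gives 0.091, so single bins were read close to the counting limit. The labels do not say whether the long-term libraries of a genotype are separate clones, and p-values cover only the spread between these libraries. The median relative depth of chromosome Y was 0.027 to 0.038 in the pre-treatment and acute libraries of both genotypes. It was 0.463 to 0.470 in long-term Ctrl and 0.549 to 0.558 in long-term Tet iTKO libraries. Stage and cell population therefore cannot be told apart, nor can genotype and cell population between the long-term groups.

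The ends were covered slightly more deeply than the rest of their chromosomes. The level of a library was the mean over the 15 ends of their median log2 relative depth. Among Ctrl libraries the level was 0.039 before treatment, 0.043 after acute treatment and 0.041, 0.045 and 0.039 in long-term replicates 1 to 3. Among Tet iTKO libraries it was 0.045 before treatment, 0.046 after acute treatment and 0.048, 0.050 and 0.046 in long-term replicates 1 to 3. Dnmt TKO stood highest at 0.066. The rest of the same autosomes lay at 0.007 to 0.019 in the 11 libraries.

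**Figure D1:**
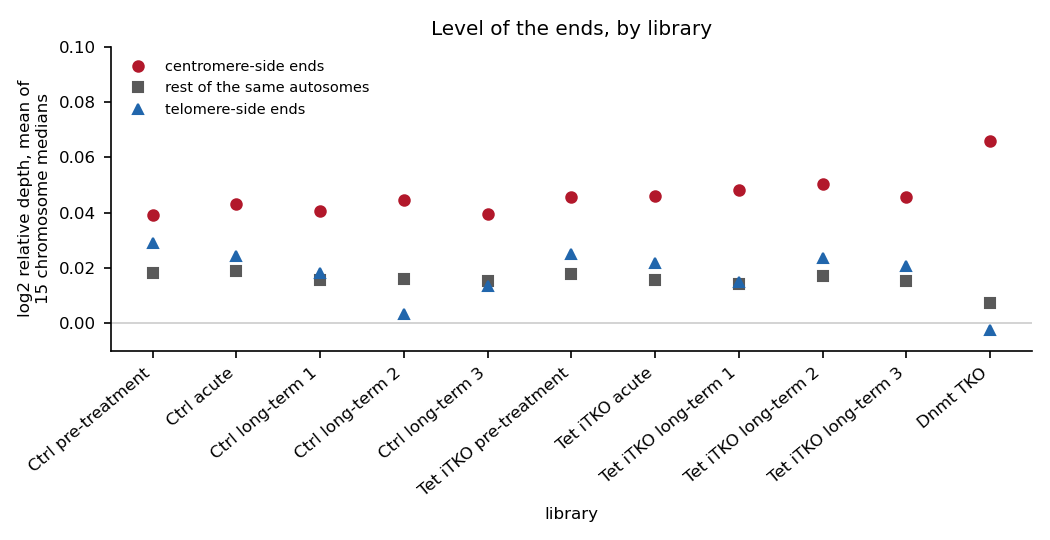
Level of the centromere-side ends (circles), the rest of the same autosomes (squares) and the telomere-side ends (triangles) in each of the 11 libraries, as the mean over 15 chromosomes of the median log2 relative depth. The circles lie above both other symbols in every library, and Dnmt TKO has the highest circle, at 0.066.

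The ends exceeded the rest by 0.031 ± 0.010 (SD, n = 11), and in 11 of 11 libraries (exact two-sided sign-flip permutation test, p = 0.000977, the smallest that 11 libraries allow). The excess over the telomere-side ends was 0.029 ± 0.015 (SD, n = 11), with the same exact permutation p of 0.000977. The libraries share cell populations, so these p-values describe these libraries only. Without the first 500 kb of each end the excess over the rest was 0.024, and with ends of 2.5 Mb it was 0.063. The repeat-masked share of the bins was 38.0% in the ends, 33.1% in the rest and 31.5% at the telomere side, while GC content was 42.0%, 42.1% and 43.8%. The part of repeats in the excess was not tested.

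The 15 ends differed from one another. The end of chromosome 19, with 185 protein-coding genes, lay 0.076 above the rest of its chromosome on average, and the ends of chromosomes 9 and 11 lay 0.070 and 0.067 above. Altogether 8 ends were above the rest of their chromosome in all 11 libraries. Chromosome 16 was the exception in the other direction, with its end below the rest in all 11 libraries (by 0.023 to 0.090). The ends of chromosomes 2 and 12 were on average 0.001 and 0.004 below the rest and changed side between libraries.

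The long-term groups did not overlap in the level of the ends as defined here, and the gap was very small. They did overlap with ends of 2.5 Mb or with all 19 autosomes. The 3 long-term Tet iTKO libraries averaged 0.048 ± 0.0024 (SD, n = 3) and the 3 long-term Ctrl libraries 0.042 ± 0.0027 (SD, n = 3), a difference of 0.0065 on the log2 scale (exact two-sided permutation test, p = 0.1, the smallest that 3 against 3 allows). The rest of the same autosomes differed by 2.2e-05. At the telomere-side ends the level was 0.018, 0.0031 and 0.013 in long-term Ctrl and 0.015, 0.023 and 0.021 in long-term Tet iTKO libraries. Those values overlapped but were also higher on average in Tet iTKO, so the gap is not shown to be particular to the centromere side. Of the 15 ends taken singly, 11 were higher in long-term Tet iTKO, and differences ran from -0.018 to 0.022. After Benjamini-Hochberg adjustment over the 15 ends, 0 passed 0.05 in the exact permutation test, where 0 could pass, and the smallest adjusted p was 0.643.

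Taken over all bins, the SD of depth was larger in the ends than in the rest of the same autosomes. The SD of log2 relative depth over bins was 0.302 to 0.325 in the ends, 0.158 to 0.220 in the rest and 0.194 to 0.242 at the telomere side. It was higher in the ends than in the rest in 11 of 11 libraries (exact two-sided sign-flip permutation test, p = 0.000977). The libraries share their deepest bins, so the common sign is not 11 separate readings. The first bin of chromosome 9 had a relative depth of 149 to 201 over the 11 libraries. The second bin of chromosome 11 had 16.7 to 19.99 and the first 6.99 to 8.32. Whether the other bins of the ends were more spread than the rest was not tested. The larger SD over all bins came with very deep bins near the start of the assembly. In the ends 17 bins (1.14%, 95% exact binomial interval 0.668 to 1.83) had a mean relative depth of 1.5 or more, against 133 bins (0.383%) in the rest and 20 bins (1.35%) at the telomere side. The interval takes bins as independent draws, which clustered neighbouring bins are not, so it is only a yardstick. Counted by library there were 16 to 19 such bins in each Ctrl and Tet iTKO library and 35 in Dnmt TKO, beside 126 to 143 and 233 in the rest. Of the 17 bins, 16 lay within 500 kb of the first bin, where they made up 11.3% of 141 bins, and they came from 10 of the 15 ends. No bin of the ends had a mean relative depth of 0.5 or below (exact binomial 95% upper limit 0.248%, with the same limit to its meaning). The rest had 3 such bins (0.0086%) and the telomere side 0. With a share this low in the rest, the absence says little about the ends. Dnmt TKO taken alone had 3 bins at or below 0.5 in the ends, and the other 10 libraries had 0.

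**Figure D2:**
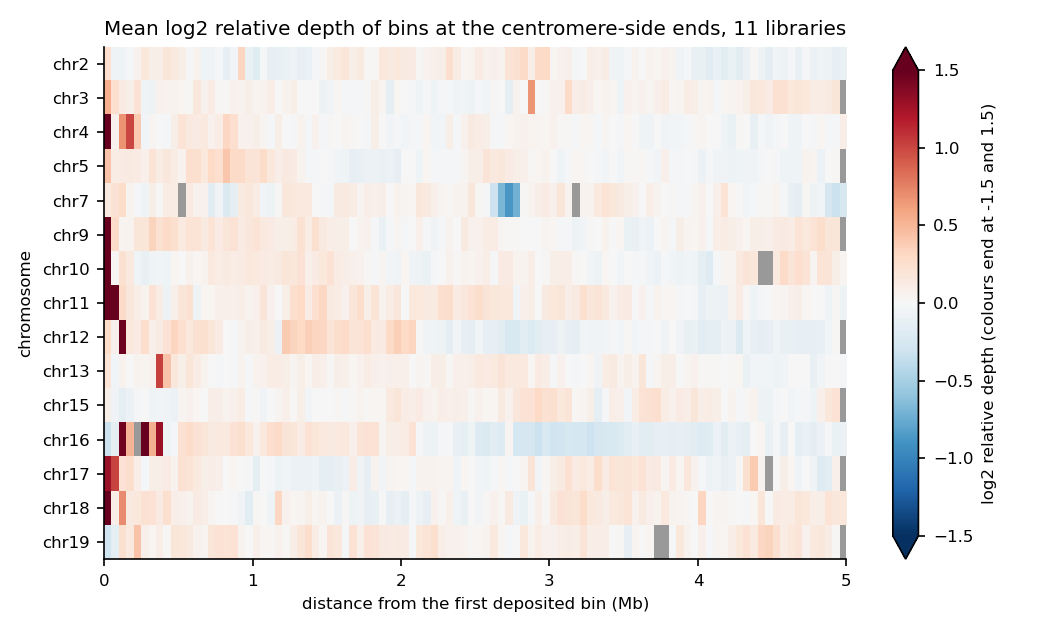
Mean log2 relative depth over 11 libraries of each bin (colour) by distance from the first deposited bin (horizontal axis, Mb) for the 15 ends (rows), with grey for gaps between bins. The dark red bins crowd at the left edge, where 16 of the 17 bins at 1.5 or above lie, and the blue bins of chromosome 7 near 2.7 Mb are the 3 lowest of the ends.

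Averaged over the 15 ends in windows of 10 bins, log2 relative depth was 0.67 in the first window, 0.10 in the second, 0.080 in the third, 0.060 in the fourth and 0.037 in the fifth. The median over the ends was 0.36 in the first window, well below its mean. The 11 libraries gave 0.62 to 0.69 for the first window, with Dnmt TKO lowest. First windows differed widely by chromosome, from a relative depth of 0.96 on chromosome 15 to 1.69 on chromosome 16, 3.56 on chromosome 11 and 18.8 on chromosome 9. Those of chromosomes 2, 7 and 19 stood at 1.05, 1.06 and 1.06. The mean thus dropped most from the first window to the second, a drop not shared equally by the ends. Changes inside a window were not resolved.

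Most deep bins had nearly the same depth in all Ctrl and Tet iTKO libraries. The second bin of chromosome 11 (chr11:3149993-3199984) contains most of Sfi1, which encodes a centrin-binding protein of the centrosome, and the end of Drg1, a GTP-binding protein gene. Its relative depth was 19.99, 19.6, 19.5, 19.6 and 19.2 in the pre-treatment, acute and long-term Ctrl libraries. It was 19.7, 19.1, 19.5, 19.3 and 18.7 in the Tet iTKO libraries in the same order and 16.7 in Dnmt TKO. The first bin of that chromosome, which holds the rest of Sfi1, had 6.99 in Dnmt TKO and 7.59 to 8.32 in the other 10 libraries. Of the second bin 64.4% aligned at 94.0% identity to an unplaced contig of the assembly. The 17 bins varied 1.07-fold to 1.35-fold among the Ctrl and Tet iTKO libraries.

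**Figure D3:**
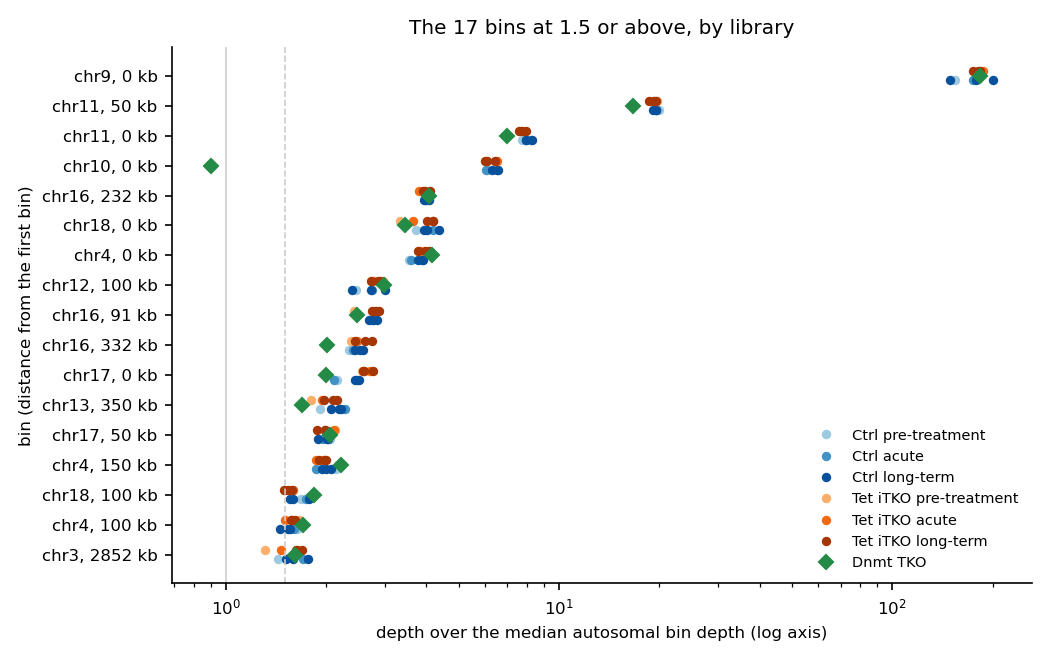
Relative depth (log axis) of the 17 bins at 1.5 or above in each library, ordered by their mean and named by chromosome and distance from the first bin, with Ctrl in blue, Tet iTKO in orange to brown and Dnmt TKO as green diamonds. Libraries of a bin lie close together except for the first bin of chromosome 10, where Dnmt TKO sits at 0.904 and the others at 6.01 to 6.56.

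Only 5 of the 17 deep bins overlapped a protein-coding gene, those of Sfi1 among them. The other coding genes named in deep bins were predicted genes on chromosome 9 and the vomeronasal receptor genes Vmn1r2 and Vmn1r3 on chromosome 4 and Vmn1r238 on chromosome 18, which encode pheromone receptors. Their bins had a mean relative depth of 1.58 and 1.63. Repeat-masked sequence made up 52.4% of the deep bins and 37.9% of the other bins of the ends. A copy elsewhere in the assembly, aligned over at least 10 kb at 90% identity and covering at least 10% of the bin, was found for 8 of the 17 deep bins and for 70 of the 1468 others. Not all deep bins had such a copy, and those with one on chromosome 16 were copies of each other at 98.7% identity.

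The satellite-like bin of chromosome 9 did not scale with its library. Its relative depth was 154, 175, 149, 201 and 178 in the pre-treatment, acute and long-term Ctrl libraries. In the Tet iTKO libraries it was 183, 188, 175, 181 and 183 in the same order, and Dnmt TKO had 184. The depth itself, before scaling, was 41.9 to 47.0, a 1.12-fold range where the median autosomal depth spanned 1.47-fold. The highest relative depth belonged to the library of lowest median depth, long-term Ctrl replicate 2, and the lowest to the library of highest median depth, long-term Ctrl replicate 1. Relative depth in this bin therefore fell as the depth of the library rose, and the part of library depth in any difference between groups was not tested.

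By the rule that at least 10% of a bin repeat itself at the unit length of major or minor satellite, 5 bins of the ends and 3 of the rest were satellite-like. Among the ends the bin of chromosome 9 was so at the major satellite length, and the other 4 at the minor satellite length of 120 bases. The mean relative depth of these 5 bins was 36.9 ± 0.813 (SD, n = 3) for long-term Tet iTKO against 36.2 ± 5.16 (SD, n = 3) for long-term Ctrl, a difference of 0.697 (exact two-sided permutation test, p = 0.8). Without long-term Ctrl replicate 1 the sign turned, to -1.98. The other 4 bins, without that of chromosome 9, had a mean of 1.07 ± 0.013 and 1.13 ± 0.017 (SD, n = 3 each), which did not overlap (exact two-sided permutation test, p = 0.1). A period of 120 bases is also matched by simple repeats of shorter period, so these 4 bins are not shown to be minor satellite.

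At the low end stood 3 neighbouring bins of chromosome 7, all in a stretch of vomeronasal receptor genes. The bin chr7:5723460-5773629, without a coding gene, had a relative depth of 0.477 in Dnmt TKO and 0.510 to 0.599 in the other 10 libraries. Its neighbours, with Vmn1r62 before it and Vmn1r63 after it, had 0.552 to 0.661 and 0.510 to 0.700 over all 11 libraries. All 3 bins were low in every library. Each was covered along its whole length by alignments to other places, the longest to an unlocalized contig of chromosome 7 at 99.75% identity or more, so the assembly holds this sequence more than once. The part of these copies in the low depth was not tested.

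Single bins were compared between the long-term groups with limma across all 47924 autosomal bins. In the ends 3 of 1485 bins passed an adjusted p of 0.05, or 0.202%, beside a background of 0.136% (65 bins) over all autosomal bins. Of the 3, 2 were lower and 1 was higher in Tet iTKO. At an unadjusted p under 0.05 there were 85 bins of the ends (5.72%, against 6.08% of all bins).

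Both lower bins lay in the cluster of paired immunoglobulin-like receptor genes on chromosome 7, whose products on myeloid and B cells bind MHC class I molecules. The first covers Pira2, an activating receptor gene (ENSMUSG00000089942, chr7:3836812-3845051, minus strand), and part of the predicted gene Gm15448. Its relative depth was 1.10, 1.15 and 1.09 in the long-term Ctrl and 0.842, 0.864 and 0.780 in the long-term Tet iTKO libraries. The groups did not overlap, and log2 depth was lower in Tet iTKO by -0.42 ± 0.072 (SE; limma adjusted p = 0.000829).

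Before treatment the Pira2 bin stood at 0.914 in Ctrl and 0.839 in Tet iTKO, and after acute treatment at 1.02 and 0.941. The early Ctrl libraries thus lay below the long-term Ctrl ones, and the long-term Tet iTKO values lay on both sides of the Tet iTKO pre-treatment value. Each early value is 1 library, and chromosome Y depth differs between early and long-term libraries, so no change over time can be read. The second bin holds the start of Pirb, the inhibitory counterpart (ENSMUSG00000058818, chr7:3711409-3720391, minus strand). It had 1.09, 1.17 and 0.953 in long-term Ctrl and 0.780, 0.869 and 0.829 in long-term Tet iTKO libraries, a log2 difference of -0.37 ± 0.076 (SE; limma adjusted p = 0.0150). This call was lost without long-term Ctrl replicate 1 (-0.35, limma adjusted p = 0.183), Ctrl replicate 2 (-0.30, adjusted p = 0.372) or Tet iTKO replicate 1 (-0.33, adjusted p = 0.149).

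These 2 bins are not independent readings. A copy of most of the Pira2 bin, aligned over 46.0 kb at 98.5% identity, lies almost wholly in the Pirb bin, and 77.8% of its 50-base words occur unchanged there, as in the sequence shown above. Which of the genes the difference belongs to could therefore not be settled. All 4 bins from Pirb to Lilra6, a leukocyte immunoglobulin-like receptor gene, were averaged after their values had been seen, around the called bins, so that their difference is a description with no test. The mean relative depth was 1.12, 1.14 and 1.03 in long-term Ctrl and 0.880, 0.903 and 0.857 in long-term Tet iTKO libraries. Before treatment it was 0.936 in Ctrl and 0.860 in Tet iTKO, and after acute treatment 1.01 and 0.9298. The bins on either side of the stretch did not pass in the limma fit (adjusted p = 0.953 and 0.989).

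**Figure D4:**
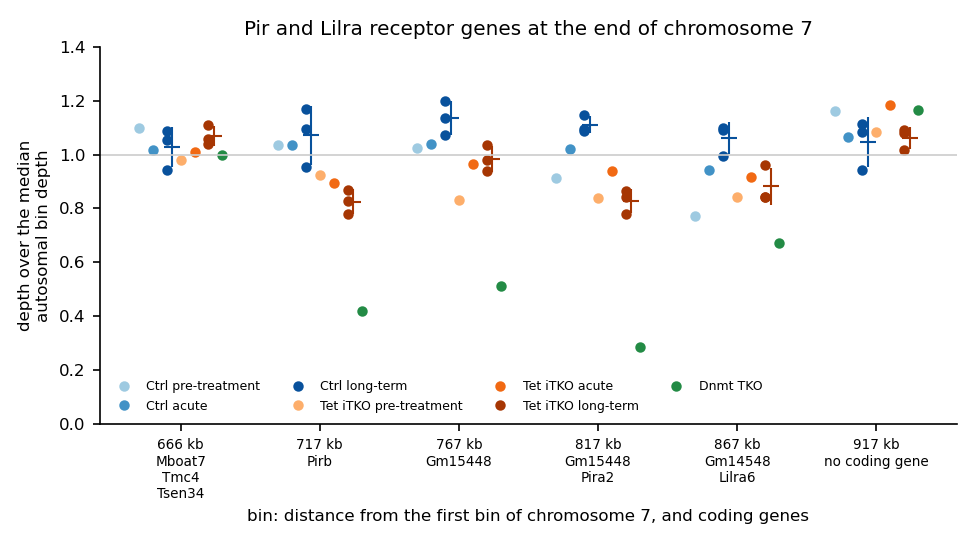
Relative depth of 6 consecutive bins of chromosome 7 in each library (points), with mean and SD for the long-term groups of 3 libraries (bars), and the coding genes of each bin under its distance from the first bin. Long-term Tet iTKO points lie below long-term Ctrl points in the bins of Pirb and Pira2, and Dnmt TKO is lowest in the 4 bins from Pirb to Lilra6, at 0.284 for Pira2, but not in the outer bins.

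The bin that was higher in Tet iTKO (chr16:4830930-4880909) holds the gene 4930562C15Rik and Ubald1, which encodes a small UBA-like domain protein. Its relative depth was 0.961, 0.912 and 0.807 in the long-term Ctrl and 1.14, 1.16 and 1.07 in the long-term Tet iTKO libraries, a log2 difference of 0.33 ± 0.075 (SE; limma adjusted p = 0.0448). The adjusted p rose to 0.0846 with GC correction and to 0.553 without long-term Ctrl replicate 3. It is the weakest of the 3 calls.

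Dnmt TKO differed from the long-term Ctrl libraries in a few sharply bounded places. With 1 library there is no test, and bins past 0.5 on the log2 scale are described. Differences of the cell line and of the knockout cannot be told apart here. In the ends there were 24 such bins, 17 higher and 7 lower, or 1.62%, beside 1.41% of the rest of the same autosomes. The background of 3.27% of all autosomal bins includes the 4 autosomes left out, which held 1055 of the 1569 such bins. The small excess over the rest of the same autosomes rests on 1 library and was not tested. Of the 24 bins, 19 fell in 3 runs of 4 or more consecutive bins, and 18 had a long copy elsewhere in the assembly, beside 5.25% of all bins of the ends.

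**Figure D5:**
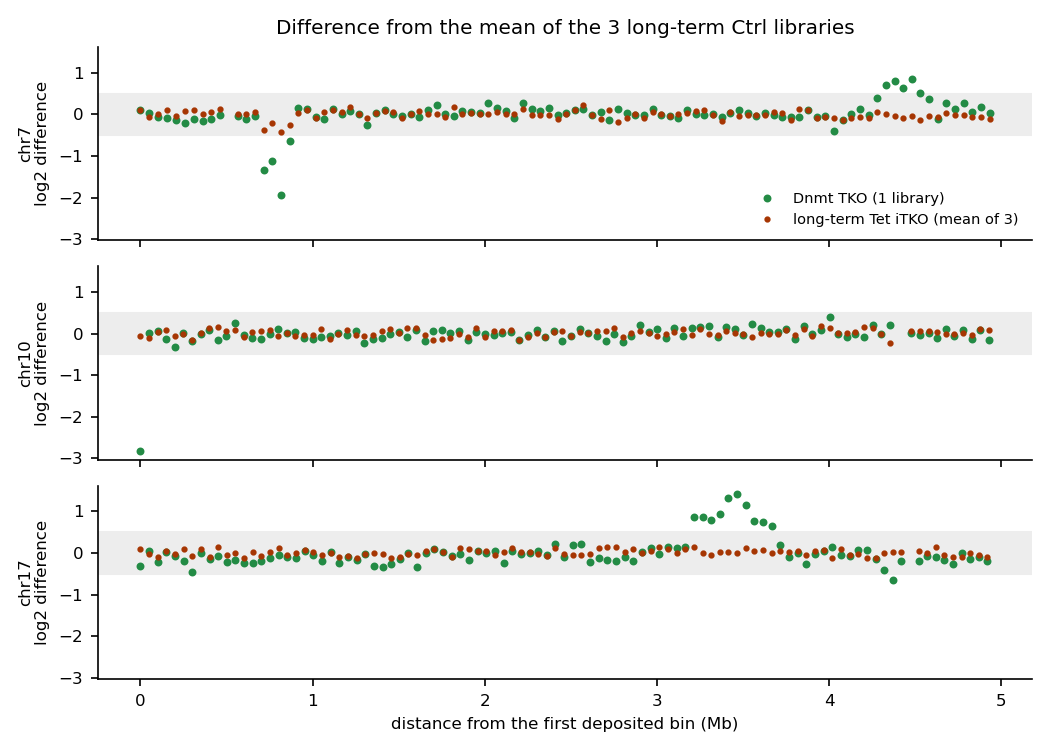
Log2 difference in relative depth from the mean of the 3 long-term Ctrl libraries for each bin of the ends of chromosomes 7, 10 and 17, by distance from the first bin (Mb), with Dnmt TKO in green, the mean of the 3 long-term Tet iTKO libraries in brown and a grey band within 0.5. Green points leave the band in runs on chromosomes 7 and 17 and in the first bin of chromosome 10, at -2.82, where brown points stay in the band.

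The run with lower depth was that of the Pir and Lilra receptor genes. Over its 4 bins the mean relative depth, weighted by length, was 0.472 in Dnmt TKO, 0.431 of the long-term Ctrl mean. Whether this lower depth is a lower copy number was not tested, and the placement of reads among the copies is not given. Lower copy number in every cell and in only some of the cells could also not be told apart in bulk DNA. The bins taken singly had 0.418 for Pirb, 0.514 and 0.284 for those with Gm15448, the second of which covers Pira2, and 0.673 for Lilra6. This is the stretch in which long-term Tet iTKO also lay below long-term Ctrl, and all its bins have long copies within it.

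Both other runs were higher in Dnmt TKO. On chromosome 17, 10 consecutive bins (6214119 to 6716324) cover the repeated Dynlt1 genes, which encode light chains of the dynein motor, together with Tmem181a and Sytl3. Their mean relative depth was 2.04 in Dnmt TKO and 0.998 to 1.09 in the other 10 libraries, 1.96 times the long-term Ctrl mean. The peak bin, at 2.66, has no coding gene and 0.889 to 1.16 in the other libraries, and 100% of it has a copy at 96.5% identity in the same run. On chromosome 7, 5 bins (7328902 to 7579751) of the Vmn2r30 to Vmn2r33 pheromone receptor genes had a mean of 1.60 in Dnmt TKO and 0.910 to 1.02 in the other libraries.

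The largest single difference was a deep bin that was not deep in Dnmt TKO. The first bin of chromosome 10 (chr10:3100001-3150021), which holds only non-coding genes and pseudogenes, had 6.08, 6.05, 6.29, 6.56 and 6.49 in the pre-treatment, acute and long-term Ctrl libraries. In the Tet iTKO libraries it had 6.43, 6.51, 6.01, 6.08 and 6.41 in the same order. Dnmt TKO had 0.904, a log2 difference of -2.82 from long-term Ctrl. The 10 Ctrl and Tet iTKO libraries thus shared an excess that Dnmt TKO lacked, and no long copy of this bin was found in the assembly.

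Outside the runs, 5 bins passed 0.5, that first bin of chromosome 10 among them. The others, named after their values were seen, were those of Akap9 and Cyp51 on chromosome 5 (2.01 in Dnmt TKO), Ubxn2b on chromosome 4 (0.610), Unc93a2 on chromosome 17 (0.860) and Lyzl1 on chromosome 18 (1.74). The 3 bins of Dnmt3a (chr12:3806007-3914443, plus strand), 1 of the genes disrupted in these cells, had 0.984, 1.03 and 1.09 in Dnmt TKO, beside 0.858 to 1.08 in the other libraries over these bins. The size of the disrupted segment is not given in the sources used here, and bins of 50 kb can be larger.

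No bin of the ends passed 0.5 on the log2 scale in the comparisons around treatment. This held for pre-treatment Tet iTKO against pre-treatment Ctrl (0 bins, background 0.0522%), acute against pre-treatment in Ctrl (0 bins, background 0.00835%) and in Tet iTKO (0 bins, background 0.0271%). It also held for long-term against pre-treatment in Ctrl (0 bins, background 0.0584%) and in Tet iTKO (0 bins, background 0.0146%). Differences stayed between -0.46 and 0.46. With a background this low, under 1 bin of 1485 is the share elsewhere, so the absence says little about the ends in particular.

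Larger steps along the ends were sought in windows of 10 bins, by their departure from the median library. Of 140 windows in 11 libraries, 6 values passed 0.25 on the log2 scale, or 0.390%, beside 0.241% in the rest of the same autosomes and a background of 0.585% of all autosomal window values. Dnmt TKO gave 5 of the 6, in the windows of the runs on chromosomes 7 and 17 and the first window of chromosome 10. The sixth was the satellite-like first window of chromosome 9 in long-term Ctrl replicate 1, at -0.26. Without Dnmt TKO the shares were 0.0714% (1 value) in the ends and 0.0779% (27 values) in the rest.

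Gene families were counted from the annotation alone, by the midpoint of each gene and with no test. The ends held 716 protein-coding genes, or 9.64 per Mb, beside 9.12 per Mb in the rest. Vmn1r pheromone receptor genes numbered 14 (0.188 per Mb, against 0.082), Vmn2r genes 9 (0.121 against 0.057) and Zfp zinc finger genes 22 (0.296 against 0.181). Olfr odorant receptor genes were rarer, at 10 (0.135 against 0.586 per Mb). There were 3 Nlrp genes in the ends and 14 in the rest (0.040 against 0.0081 per Mb). No Pramel, Speer, Scgb, Serpin or Skint gene lay in the ends. The rest had only 0.0029 (Pramel) to 0.026 (Serpin) per Mb of these, so their absence says little about the ends. Predicted Gm genes had 0.498 and 0.499 per Mb. All Vmn2r and Nlrp genes of the ends lay on chromosome 7, so these counts rest on single clusters.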

How the data were processed

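Depth came from 11 low-coverage whole-genome libraries of mESC in 7 groups, taken from the sample labels. Per the study's methods, the authors mapped trimmed reads to mm10 by BWA-mem and Picard was used against optical duplicates. The submitters' processing notes also list BSMAP (2.74v). The deposited depth is a coverage signal per bin of about 50 kb, with neither a scaling to the library nor a correction for GC content or mappability. The deposited log2 column equalled log2 of depth to within 4.05e-05 and was not used further. Of 3432 low values, 96.2% were multiples of 50 bases within 1 base, so reads were taken as 50 bases, although the methods name a longer minimum. How reads with several matching sites were placed is not given in the sources used here.

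Depth was divided by the median autosomal bin depth of the library. Bins of mean relative depth of at least 0.25, all 47924 on the autosomes, were fitted as log2(relative depth + 0.01) between the long-term groups by lmFit and eBayes of limma 3.58.1 under R 4.3.3 (two-sided, Benjamini-Hochberg over all bins). Libraries were compared with exact permutation tests (Python 3.11.15, scipy 1.17.1). No test was made where a group had 1 library. Pairs of long-term libraries of a group differed by a chi-square per degree of freedom of 1.02 to 1.15, and each was counted as a library. Coordinates are those of mm10, checked against GRCm38.p6, with genes from GENCODE M21. Copies of the end bins were sought in the primary assembly with minimap2 2.31 (at least 10 kb aligned at 90% identity), a step chosen after the values were seen.

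Bins were named by a rule: those called by limma, the 3 highest and 3 lowest, satellite-like first bins, the 3 with the largest difference in Dnmt TKO, those past the fold before treatment, and those of Dnmt3a. The members, lists and rules were chosen with earlier results of these data known. Alternatives covered GC correction (lowess, statsmodels 0.14.6), scaling, filters, pseudocount, limma settings, windows of 10 bins, the length and number of ends, thresholds, leaving out each long-term library, and a replicate block.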

Additional observations from a re-analysis of the deposited data

Results flagged for a closer look

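Long-term minus pre-treatment values were compared between the genotypes for 30 results: the 15 ends, their mean and the 14 bins named by rule. In 6 of them every long-term library of one genotype lay above its pre-treatment library and every long-term library of the other genotype lay below. With 1 pre-treatment library per genotype, to which all its long-term libraries are compared, these opposite directions were not tested. The share of all bins that meet this rule was not counted, so the 6 cannot be set against a background. The bins named by rule include those called between the long-term groups, that of Ubald1 among them. Pre-treatment and long-term libraries also differ in chromosome Y depth, as given above.

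Long-term libraries differed from the pre-treatment library in the median log2 relative depth of the end of chromosome 12 by -0.018 in Ctrl and 0.042 in Tet iTKO on average, a gap of 0.0593. That of chromosome 13 differed by 0.024 in Ctrl and -0.020 in Tet iTKO, a gap of -0.0449, and that of chromosome 15 differed by 0.0092 and -0.032, a gap of -0.0415. Among single bins, the lowest bin of chromosome 7 (5723460 to 5773629) differed by -0.18 in Ctrl and 0.16 in Tet iTKO, a gap of 0.3418. The first bin of chromosome 10 differed by 0.085 and -0.062, a gap of -0.1464, and the bin of Ubald1 on chromosome 16 by -0.15 and 0.074, a gap of 0.2272. Over all bins of the ends such a gap had an SD of 0.149, and over the 15 ends an SD of 0.031.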

How the results depend on the processing

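Of 77 alternatives to 10 results, 62 were scored as kept. For results with a p-value this meant the same direction and side of the threshold. For counts it meant a value within 1.5-fold of the main one, and for shares a value inside its binomial interval, which takes bins as independent draws. The bins called between the long-term groups enter both as a count and one by one, so the alternatives are not independent. A further 3 results, compared between 3 and 3 libraries, could not pass under any of their 34 alternatives and are not counted. The excess of the ends over the rest (0.024 to 0.063) and over the telomere-side ends (0.020 to 0.039) kept direction and side of the threshold in every alternative run. This held also without Dnmt TKO or without the first 500 kb, which were added after seeing the data. The long-term difference in the level of the ends was 0.0048 to 0.0084, and 0.0054 to 0.0081 when single libraries were left out. The groups were no longer fully separated with ends of 2.5 Mb (exact two-sided permutation test, p = 0.5) or with all 19 autosomes (the same test, p = 0.2). The difference in the satellite-like bins was -1.98 to 3.16 when single long-term libraries were left out. It was -0.056 without the first bin of chromosome 9, and the depth of that bin alone, not scaled to the library, differed by -1.18. The share of bins at 1.5 or above was 2.16% with ends of 2.5 Mb. Bins past the fold in Dnmt TKO numbered 7 at log2 1, and window values past 0.15 numbered 10.

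Bins of the ends called between the long-term groups numbered 0 in windows of 10 bins and 1 to 3 when single libraries were left out. The Pira2 bin passed in all 12 of its alternatives (adjusted p 0.000182 to 0.0179), the Pirb bin in 9 and the Ubald1 bin in 6. Only the Pira2 bin was left without Ctrl replicate 2 or Tet iTKO replicate 1.

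Replicate numbers shared by the long-term groups did not pair the libraries, with correlations of deviations of 0.0010, -0.0051 and 0.0019. With the replicate block, 3 bins of the ends were called, the same 3, and 79 bins in all against 65. The paired differences, 0.0065 for the ends and 0.697 for the satellite-like bins, gave an exact sign-flip p of 0.25, the smallest 3 pairs allow, and 0.75. The other pseudocount was not run for the satellite-like bins, whose values are not on a log scale. Depth limits single bins to about 215 to 315 reads each, and repeated sequence limits which copy a read is assigned to.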
